A study of Drosophila melanogaster with 3 samples.

Results

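The genes examined were the 7 that encode the male-specific lethal (MSL) dosage compensation complex of *Drosophila melanogaster*: the non-coding RNA genes *lncRNA:roX1* and *lncRNA:roX2* and the protein genes *msl-1*, *msl-2*, *msl-3*, *mle* and *mof*. They were chosen by name, out of 18164 annotated genes on 6 chromosome arms, and all 7 were found in the annotation. The data are chromatin immunoprecipitation with sequencing (ChIP-seq) of the homeodomain protein OdsH, fused to GFP at its C terminus, in whole white prepupae of a stable transgenic line, males and females pooled. The labels give a single group of 3 biological replicates, so no genotype, stage or sex was contrasted and no flies without the fusion were analysed here. Their descriptions name an antibody to GFP while their antibody field reads OdsH, so whether untagged OdsH was also precipitated cannot be told from the labels. The promoter that drives the fusion is not given in the sources used here.

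In male flies the MSL complex binds along the single X chromosome and raises its transcription to balance the X chromosomes of females. MSL1 and MSL2 form its core, MSL3 carries a chromodomain, MLE is an RNA helicase that remodels the roX RNAs, and MOF acetylates histone H4 at lysine K16. The roX genes lie on X, are transcribed in males, and are among the sites where the complex first enters that chromosome, through GA-rich elements. The complex assembles in males because the female protein Sxl blocks translation of *msl-2* mRNA. Whole prepupae hold both sexes and all tissues, so binding in a few cells, or in males alone, cannot be told apart from weak binding in many.

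OdsH-GFP had a replicated peak just past the end of *lncRNA:roX2*, a weaker region below the authors' threshold at the start of *lncRNA:roX1*, and no region at *msl-1*, *msl-2* or *msl-3*. At *mle* and *mof* single replicates had regions that the pooled list did not hold. A gene was counted when a peak summit lay in its body or within 2000 bp of either end, using the authors' set of 8700 peaks that passed the irreproducible discovery rate (IDR) procedure, which keeps regions ranked alike in replicates. By that rule 1 of the 7 genes had a summit (14.3%), against 34.8% of all annotated genes and 36.4% of protein-coding genes. Genes on X stood at 37.4%, non-coding RNA genes at 31.6%, and genes whose windows were as long as those of the 7, between 5368 and 9922 bp, at 33.7%. With 7 genes the count differs from these shares by 1 or 2 genes, and no test was made. In the replicates' own 8700 strongest rows, 1, 2 and 1 of the 7 genes had a summit in replicates 1, 2 and 3, or 1.33 ± 0.577 (SD, n = 3), while 38.7, 37.7 and 36.5% of all genes did.

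**Figure D1:**
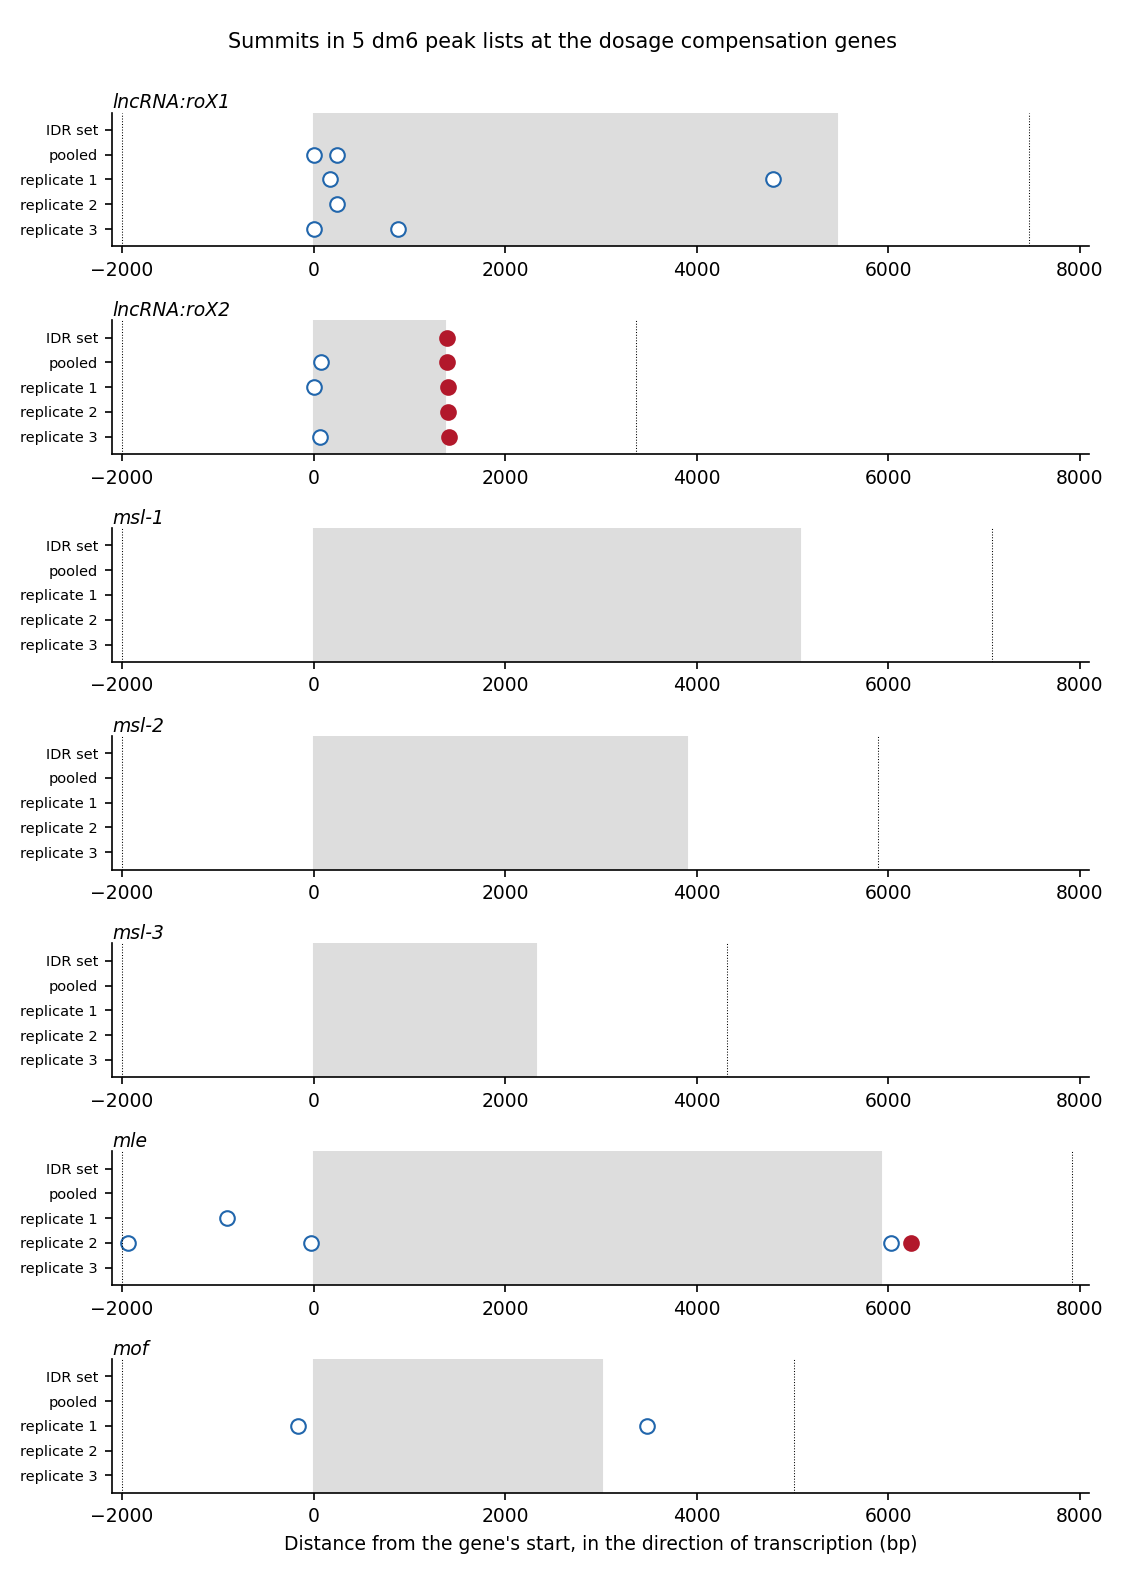
Each panel shows 1 gene (grey bar) with distance from its start in bp on the x axis, and the summits in 5 peak lists on the y axis; dotted lines mark 2000 bp beyond either end. Filled red points belong to the 8700 strongest rows of a list and open blue points are weaker rows. *lncRNA:roX2* has red points in all 5 lists just past its end, and *msl-1*, *msl-2* and *msl-3* have no point in any list.

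The sequence around the *lncRNA:roX2* summit is shown because it was the single IDR summit at these genes and lay close to GA-rich sequence at the end of the gene. The run covers chrX:11580208-11580507 on dm6, plus strand, the strand of the gene, and is credited to the RefSeq assembly of the same release. Capitals mark 2 matches to GAGAGAG (the first on the other strand, as CTCTCTC), 1 match to TAATTA, and the single summit base, number 250 in the run of 300.

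lncRNA:roX2 region: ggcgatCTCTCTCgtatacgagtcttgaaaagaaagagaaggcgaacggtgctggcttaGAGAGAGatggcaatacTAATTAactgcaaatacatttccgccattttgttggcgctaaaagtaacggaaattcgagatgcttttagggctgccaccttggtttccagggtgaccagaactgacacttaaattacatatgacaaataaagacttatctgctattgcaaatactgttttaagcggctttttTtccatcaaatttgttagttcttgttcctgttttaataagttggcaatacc

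The GAGAGAG matches were centred 240 and 187 bp upstream of the summit, inside the transcribed part of *lncRNA:roX2*. They were the 2 matches in the whole window of 5368 bp, and the nearer lay inside the peak. The longer window of *msl-1* (9081 bp), which held no row in any list, also had 2 matches. Of the 8700 IDR peaks, 569 held GAGAGAG in the same stretch of 300 bp placed on their own summits, and 1922 (22.1%) held TAATTA, a word bound by many homeodomains. Within 50 bp on each side of the summit none of the 6 words searched on both strands was present. Over all IDR summits such windows held TAATTA in 10.8% of cases and the similar TAATTG in 11.5%. They held TATCGATA, the DNA replication-related element, in 0.701% and the core promoter word GGTCACAC in 0.494%. They held GAGAGAG in 1.14% and the E-box CAGCTG in 2.28%, so a window with none is common. A match describes letters and not a bound site.

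The gene *lncRNA:roX2* (X, 11579065 to 11580432, plus strand, 1368 bp, 6 annotated transcripts from 1 start site) makes the shorter of the roX RNAs, which appears later in the embryo than that of *lncRNA:roX1*. Its peak (X, 11580249 to 11580664, 416 bp wide) had its summit at 11580457, in intergenic sequence 25 bp past the 3' end of the gene and 1392 bp from its start. The same summit stood 315 bp upstream of the start of *nod* (X, 11580772 to 11585750, plus strand), the nearest start site, which encodes a kinesin-like protein of female meiosis. A summit in that gap of 339 bp cannot be assigned to either gene by position. The authors' signal value, computed by their peak caller and comparable within a list, was 218, above the set's median of 153, and 31.5% of the set was stronger (rank 2739).

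All 3 replicates held this peak among their 8700 strongest rows. The signal value was 29.8 in replicate 1, 97.8 in replicate 2 and 83.7 in replicate 3, each in its own list, at ranks 6905, 2751 and 2122. Replicate 1 was the low one. Among the 200 IDR peaks ranked nearest to this peak (100 above, 100 below), 194 were also supported by all 3 replicates. Such support was therefore common at this rank. The median rank of the 200 was 2926, 2855 and 2819 in replicates 1, 2 and 3. None of the 200 ranked lower than the *lncRNA:roX2* peak in replicate 1, whereas 121 and 174 of them ranked lower or were absent in replicates 2 and 3. The replicates placed the summit at 11580465, 11580466 and 11580475, within 10 bp of each other. A weak second row at the gene's start (pooled signal value 20.0, rank 27111 of 30000) was matched by rows ranked 21296 in replicate 1 and 27288 in replicate 3, and by none in replicate 2.

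The next IDR summit lay outside the window, 2303 bp upstream of *lncRNA:roX2* and 3695 bp from the first. It stood between the divergent starts of *e(y)2*, which encodes a subunit of the SAGA and TREX-2 complexes, and *CG11695*, 142 and 121 bp from them. Its signal value was 248 (rank 2306), and its ranks of 2225, 3223 and 2081 in replicates 1, 2 and 3 lay close together, unlike those of the peak beside *lncRNA:roX2*.

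**Figure D2:**
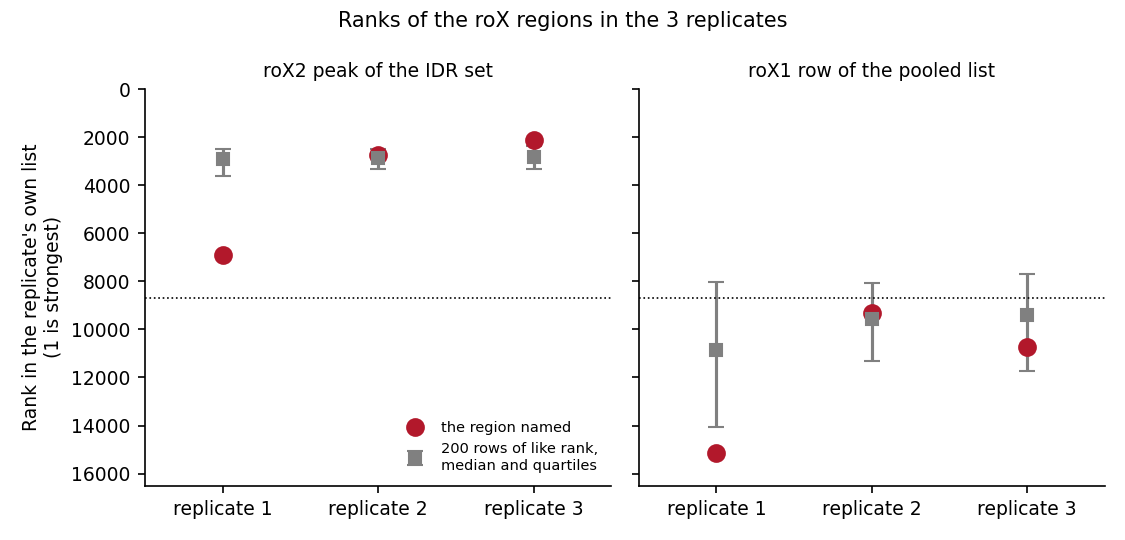
The rank in each replicate's own list (y axis, 1 at the top) is shown for the *lncRNA:roX2* peak and the *lncRNA:roX1* row (red points), with the median and quartiles of the 200 rows of nearest rank in the IDR set or the pooled list (grey squares and bars). The dotted line is rank 8700. The *lncRNA:roX2* peak falls below its peers in replicate 1 (rank 6905 against a median of 2926), and the *lncRNA:roX1* row lies beyond rank 8700 in all 3 replicates.

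The gene *lncRNA:roX1* (X, 3857230 to 3862697, minus strand, 5468 bp, 5 transcripts from 3 start sites) makes the longer of the 2 roX RNAs, which overlap in function. No IDR summit lay in its window. The authors also deposited 30000 pooled rows of peaks and background, and the strongest of these at *lncRNA:roX1* (X, 3862243 to 3862658) missed the IDR set by 786 ranks. Its summit, at 3862451 in an exon, was 246 bp into the gene and 26 bp upstream of an internal start site. Its signal value was 70.1 (rank 9486), against 77.5 for the weakest IDR peak. A second pooled row had its summit 6 bp from the first start site (signal value 36.9, rank 16270).

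Each replicate had a row overlapping the stronger region, and each fell outside that replicate's 8700 strongest. The signal values were 14.2, 34.7 and 18.5 in replicates 1, 2 and 3, at ranks 15152, 9321 and 10738. Replicate 1 was again the lowest in rank. Its rank lay beyond the upper quartile of 200 pooled rows of like rank (median 10844, quartiles 8041 and 14071), while replicates 2 and 3 lay within theirs. Of those 200 rows, 16 were among the 8700 strongest of every replicate. Their summits stood at 3862525, 3862455 and 3862691, a spread of 236 bp. The summit of replicate 3 was at the same base as that of the second, weaker pooled row, so the spread takes in both pooled rows, which overlap.

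The sequence at the *lncRNA:roX1* row is given for comparison, since it differed in base composition from the *lncRNA:roX2* summit. It covers chrX:3862351-3862551 on dm6, minus strand, the strand of the gene, 100 bp on each side of the summit, whose base is in capitals. None of the 6 words occurred in it, where 18.1% of IDR summits held TAATTA and 3.02% held GAGAGAG in windows of this length.

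lncRNA:roX1 region: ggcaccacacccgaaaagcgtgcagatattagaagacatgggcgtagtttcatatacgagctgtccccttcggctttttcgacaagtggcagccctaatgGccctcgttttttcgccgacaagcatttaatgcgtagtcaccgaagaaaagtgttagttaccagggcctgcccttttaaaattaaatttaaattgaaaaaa

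The single GAGAGAG match in the *lncRNA:roX1* window lay 1112 bp from this summit, inside the gene and 1358 bp from its start. The GC content within 50 bp on each side of the *lncRNA:roX2* summit was 30.7%, against an IDR mean of 31.8%, and 47.3% of IDR summits had less. With 100 bp on each side it was 38.8%, against a mean of 33.9%, and 79.6% had less, so its place among IDR summits depended on the width read. Within 50 bp on each side of the replicates' own summits it was 34.7, 35.6 and 36.6%, or 35.6% ± 0.990 (SD, n = 3). These windows overlap on the same reference sequence, so the SD reflects only where each replicate placed its summit. At the *lncRNA:roX1* row the GC content within 50 bp on each side was 49.5%. The median was 32.7% (quartiles 27.7 and 36.9) in the 200 pooled rows of like rank, of which 6 had more. With 100 bp on each side the *lncRNA:roX1* value was 44.3%, nearer to the 38.8% at *lncRNA:roX2*, so this contrast also depended on the width. Lower values stood near both summits: 27.7% centred 500 bp upstream of the *lncRNA:roX2* summit, and 19.8% at the same distance upstream of the *lncRNA:roX1* summit.

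**Figure D3:**
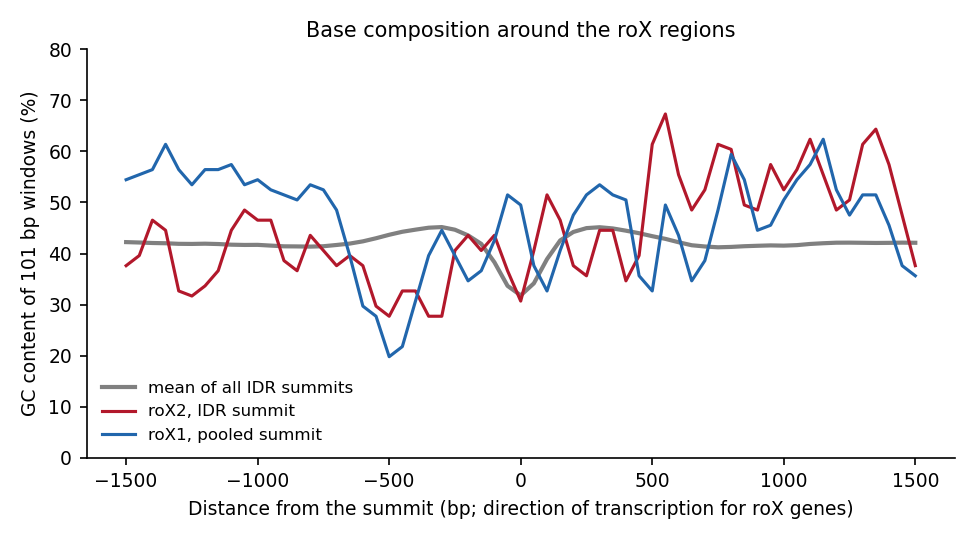
GC content (y axis, %) of windows reaching 50 bp to each side is plotted against distance from the summit in bp, in the direction of transcription for the roX genes. The mean over all IDR summits dips to 31.8% at the summit, *lncRNA:roX2* (red) is at 30.7% there, and *lncRNA:roX1* (blue) is at 49.5%.

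The core genes *msl-1*, *msl-2* and *msl-3* held no row in any list. This includes the weakest of the 30000 rows in the pooled list and in each replicate, which reach into background. Of all annotated genes 22% had no row in the 4 lists of that length, and 23.5% of genes with windows as long did, against these 3 of the 7 (42.9%). A pooled row was present at 2 of the 7 genes, both roX genes (28.6%), against 54.8% of all genes.

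The scaffold gene *msl-1* (2L, 18683720 to 18688800, minus strand) had its nearest IDR summit 6118 bp away, in an intron of *CG10383* (signal value 204, rank 3007), and all 3 replicates supported it at ranks 2837, 3307 and 2567. A stronger summit followed at the start of *CG10383*, 6774 bp from *msl-1* (427, rank 972). *msl-2* (2L, 3462218 to 3466112, minus strand) encodes the subunit whose synthesis limits the complex to males, and it starts 44 bp from the divergent gene *ND-PDSW*, a subunit of mitochondrial complex I. That shared promoter region held no summit in any list. The nearest IDR summit lay 11362 bp away in the non-coding gene *lncRNA:CR43928*, with the nearest coding start that of *Thor*, the 4E-BP translation inhibitor (signal value 129, rank 5241). For *msl-3* (3L, 7123213 to 7125533, minus strand) the nearest summit was 8677 bp away and 306 bp upstream of *melt*, a regulator of insulin and TOR signalling. It was a strong peak, with a signal value of 550, rank 598, and ranks of 562, 679 and 555 in replicates 1, 2 and 3.

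The acetyltransferase gene *mof* (X, 5873840 to 5876853, minus strand) had 2 rows in its window, both in replicate 1 alone. The stronger was 12 bp upstream of its downstream neighbour *GAA1* (signal value 18.1, rank 11655), and the other 159 bp upstream of *mof* itself, in an exon of *Usp30* (10.2, rank 21884). Neither was among the 8700 strongest. The nearest IDR summit was 3848 bp away in an intron of *CG16721* and 118 bp upstream of one of its starts, where the signal value was 331 (rank 1467) and the ranks were 1398, 1432 and 2349.

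The helicase gene *mle* (2R, 5974857 to 5980778, minus strand) was farthest from any IDR summit of the 7, at 36864 bp. That summit, 97 bp upstream of *Pngl*, was weak (signal value 95.9, rank 7151) and was supported by replicates 2 and 3. Within the window of *mle*, replicate 1 had 1 row, replicate 2 had 4 and replicate 3 had none. The strongest of these, in replicate 2, was 319 bp past the 3' end of *mle* and 153 bp upstream of *BubR1*, a spindle checkpoint gene. Its signal value was 62.5 at rank 4893, inside that replicate's 8700 strongest. It overlapped no row of the IDR set, the pooled list, replicate 1 or replicate 3. Among the 200 rows of replicate 2 ranked nearest to it, 188 overlapped an IDR peak, 189 a pooled row, 199 a row of replicate 1 and 183 a row of replicate 3, and 1 had no counterpart in any. It is the extra gene in the count for replicate 2, and its cause was not tested. At the start of *mle* itself only replicate 2 had a row, a weak one with its summit 31 bp upstream (17.9, rank 17340). The replicate 1 row had its summit 903 bp upstream of *mle*. It was nearer to the start of the kinase gene *Src42A*, at 163 bp, and was also weak (11.2, rank 19617).

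Across the 7 genes the distance from the gene to the nearest IDR summit was 25, 3848, 4514, 6118, 8677, 11362 and 36864 bp, with a median of 6118 bp, against a median of 5064 bp for all genes. With no margin none of the 7 had a summit, against 12.8% of all genes. With 5 kb, *lncRNA:roX1* and *mof* joined *lncRNA:roX2*, and 3 of 7 stood against 49.8%. Margins of 10 and 20 kb, added after the data were seen, gave 5 and 6 of 7 (71.4 and 85.7%) against 66 and 82.4% of all genes. At the wider margins genes with windows as long as those of the 7 stood at 67.7 and 85.8%, and the counts of the 7 were within 1 gene of either share.

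**Figure D4:**
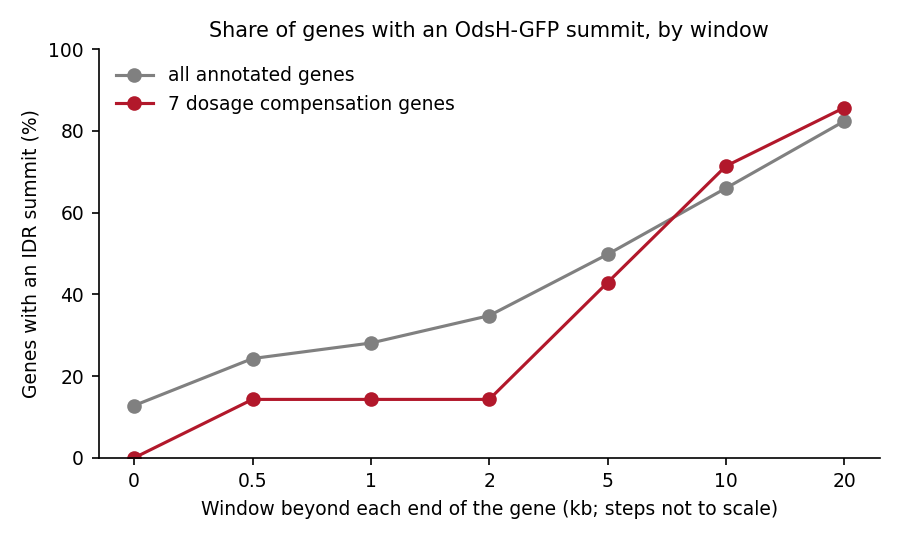
The share of genes with an IDR summit (y axis, %) is plotted against the margin allowed beyond each end of a gene (x axis, kb, steps not to scale) for the 7 dosage compensation genes (red) and all 18164 annotated genes (grey). At 2 kb the shares are 14.3 and 34.8%, and at 10 kb 71.4 and 66%.

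Among 22 other genes listed by hand as partners or regulators of the complex, 12 had an IDR summit in the same window (54.5%, against 34.8% of all genes). Their windows were longer, with a median of 9479 bp against 5656 bp, which gives a summit more room, and the list was drawn up with strong peaks at *Chro* already known. Each of the 12 had a strongest peak that all 3 replicates supported. Of all genes 27.9% had a summit with such support, against 34.8% with any IDR summit. The median signal value of these strongest peaks was 280, against 227 over the 6330 genes with a summit. Longer windows can also raise a gene's strongest value, and *Chro* is among the 12, so the medians are not like for like. No test was made. Values are given for the 10 with the highest ranks, and the others are named after their values were seen.

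The 3 genes *Trl*, *gfzf* and *Clamp* were grouped by hand as entry factors, and binding of GA-rich sites was not examined for *gfzf*. *Trl*, encoding GAGA factor, had 4 summits. The strongest was in an intron 1534 bp from a start (1822, rank 28), with ranks of 31, 26 and 31 in the 3 replicates. *gfzf* had 2. Its strongest lay in an exon of *CG2656*, 210 bp from the start of *gfzf* and 189 bp upstream of *Sas-4* (244, rank 2361). *Clamp*, whose zinc finger protein tethers the complex to GA-rich elements, had none. All 3 genes that act on *msl-2* RNA had summits. *Sxl*, the female switch gene, had 4, led by an intronic peak 1306 bp from a start (367, rank 1266), *Unr*, which acts with Sxl on *msl-2* mRNA, had 2, led by a peak 75 bp upstream (306, rank 1687), and *how* had 2, led by an intronic peak 7099 bp from its start (182, rank 3483). *msl-2* itself was without a row. The windows of these 3 genes were 14060 to 41131 bp long, against 7895 bp for *msl-2*, which gives a summit more room. Of all annotated genes 34.8% had a summit. The strongest peak at each of the 3 genes was supported by all 3 replicates, and 4 of their 8 summits were. Over all 22 partner genes 23 of 28 were so supported. The share over all IDR peaks is not given here, so these counts cannot be called high or low.

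Chromatin genes divided evenly, with 4 of 8 carrying a summit (50%), against 34.8% of all genes. Each role holds few genes, and no difference between roles was tested. *JIL-1*, whose kinase phosphorylates histone H3 and is enriched on the male X, had 4 summits, the strongest in an intron (944, rank 165; ranks 222, 93 and 300). *Chro*, whose product partners with JIL-1, had 1 at 90 bp from its start (2454, rank 4). *pzg*, encoding a chromatin-bound zinc finger protein, had a weaker one 209 bp from its start (183, rank 3463). That summit lay inside an exon of its neighbour *CG12974*, 72 bp from the start of that gene. *Top2*, encoding topoisomerase II, had 2, the stronger in an intron of *CG10026* and nearer to a start of that gene than to its own. *Set2*, *Iswi*, *Pof* and *Su(var)3-7* had none. Of the 6 genes of the non-specific lethal (NSL) complex, which shares MOF, 2 had a summit (33.3%), close to the share of all genes. *wds*, encoding a WD40 scaffold protein, had 3, the strongest in an intron of its neighbour *egh* (702, rank 353), and *nsl1* had 2. *dgt1*, *Rcd1*, *Rcd5* and *MBD-R2* had none. The nucleoporin gene *Nup153* had 1, in an exon 750 bp from its start (254, rank 2247), and *Mgtor* none.

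**Figure D5:**
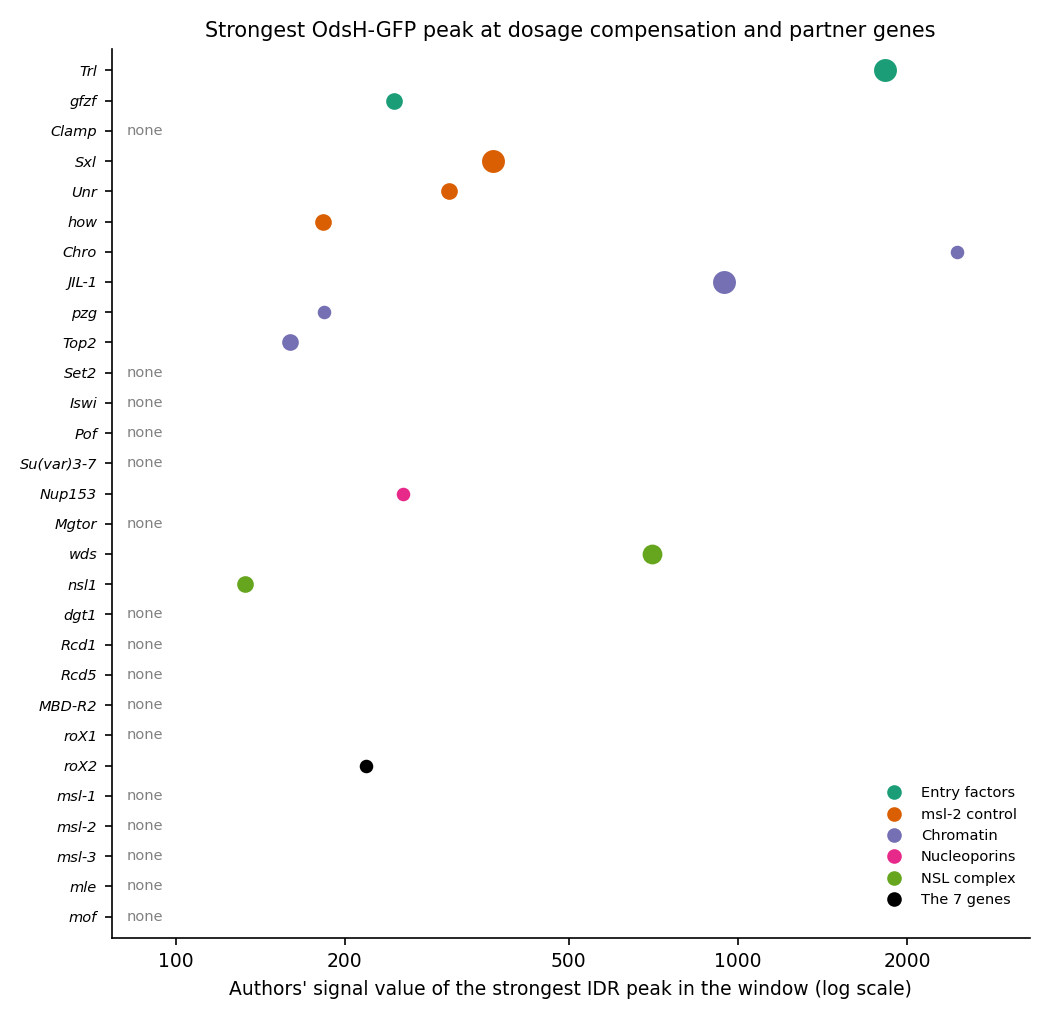
The authors' signal value of the strongest IDR peak within 2000 bp of each gene (x axis, log scale) is shown for 22 partner genes by role and for the 7 dosage compensation genes (black); larger points have more summits, and "none" marks genes without a summit. *Chro* (2454) and *Trl* (1822) lie at the right, *roX2* is at 218, and the other 6 of the 7 genes read "none".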

How the data were processed

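Peak lists on build dm6 were used: the authors' optimal IDR set (8700 rows), the pooled list and 3 replicate lists (30000 rows each). The signal value and the −log10 q-value were deposited by the authors; the latter, at a single ceiling for most IDR peaks, was not used. Per the deposited file listings, each replicate list was derived from its own alignment and 1 file common to all 3, and the pooled list from the 3 alignments, that file and another; how the latter files were used is not stated. The sources used here name no aligner or peak caller. Reads were not analysed, so depth is unknown. Fragments ranged from 200 to 800 bp, per the labels.

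Summits are the start plus the deposited offset, written 1-based. Genes and transcripts came from Ensembl release 115 (BDGP6, dm6 coordinates), without transposable elements, on 6 arms. A replicate supported an IDR peak when 1 of its 8700 strongest rows overlapped it by at least 1 bp; a rank quoted for a replicate is that of its strongest overlapping row. IDR peaks are the strongest pooled rows, so support is partly built in. Windows were counted in Python 3.11.15 with numpy 2.4.6 and pandas 2.3.3, and checked on planted summits. All results are descriptions: no test was run. dm3 lists were not used.

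The 7 genes and the 22 others were chosen with earlier results of these data known. The 22 were listed by name and counted in full. In the annotation *Mtor* stands as *Mgtor* and *pof* as *Pof*. The 7 genes and the genes at their summits are named, and values are given for up to 10 partners by rank; other neighbours are named for position. Sequences on 2R are not printed.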

Additional observations from a re-analysis of the deposited data

How the results depend on the processing

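The count of 1 gene and 1 summit held with margins of 500 and 1000 bp, in the stronger 4350 peaks and with any base of the peak counted. Leaving out a replicate, or asking for support by all 3, could not change this count, since the IDR set was not rebuilt and all 3 replicates supported the summit. Support of that summit by all 3 replicates held with longer replicate lists, a reciprocal overlap of 50% and a summit within 100 bp. With the gene body alone there were 0 genes, 0 summits and 0 supported summits, because the summit lies 25 bp past the gene, and the share of all genes fell to 12.8%. With 5000 bp there were 3 genes and 4 summits, of which 4 were supported by all 3 replicates. In the full pooled list there were 2 genes and 4 summits. The replicates' mean of 1.33 genes became 2.67 with lists of 17400 rows and 0.667 with 4350, and 1 to 1.5 with a replicate left out. The shares of all genes for lists of 17400 and 4350 rows are not given here. The GC content at the *lncRNA:roX2* summit was 29.4% with 25 bp and 38.8% with 100 bp to each side, against 30.7% with 50 bp. The IDR means beside them were 31.5, 33.9 and 31.8%. The 12 partner genes became 8 with the gene body alone and 14 with 5000 bp. Of all genes 12.8 and 49.8% had a summit at those settings. In the full pooled list 13 of the 22 partner genes had a summit, against 54.8% of all genes. Depth is unknown, so a gene without a row may hold binding too weak or too rare in whole animals to be listed.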

Other observations

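Base composition of the 7 genes was also read. Their windows had a median GC content of 48.5%, against 43.4% over all genes, with *msl-3* at 51.5%, *mof* at 50.5% and *lncRNA:roX1* at 43.4%. Within 50 bp on each side of the start site the sequence held 30.7% GC for *mle* and 54.5% for *msl-2*, with a median of 39.6% over the 7 and 43.6% over all genes. Genes with and without an IDR summit had window medians of 43.3 and 43.5%, and start-site medians of 45.5 and 41.6%. TAATTA occurred 3 times in the windows of *lncRNA:roX1*, *lncRNA:roX2* and *mle*, 4 times at *msl-1*, 2 times at *mof* and not at *msl-2* or *msl-3*. GAGAGAG occurred 2 times at *lncRNA:roX2* and *msl-1*, 1 time at *lncRNA:roX1*, *msl-2* and *mle*, and not at *msl-3* or *mof*.

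Rows without a pooled counterpart, like the replicate 2 row beside *BubR1*, made up 7.02, 5.15 and 4.31% of the 8700 strongest rows in replicates 1, 2 and 3.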
